A study of Homo sapiens with 12 samples.

Results

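Stand-alone lncRNA start sites are the 5′ ends of GENCODE lncRNA genes (GRCh38, genes with a basic transcript) that lie more than 5 kb from every protein-coding start site. The rule kept 13890 of the 18756 lncRNA genes on 23 chromosomes, out of 38726 lncRNA and protein-coding genes in all. The other 4866 lncRNAs started within 5 kb of a protein-coding start and, with 19970 protein-coding genes, served for comparison. Members were chosen by position alone, with no H3K4me2 value.

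The dimethylated histone mark H3K4me2 was mapped by ChIP-seq in U-937, an established human line of monocytic leukaemia cells. The groups were DMSO as vehicle control, 0.1 µM ATRA (all-trans retinoic acid), 0.1 µM Corin, and 0.1 µM of each drug combined, all for 24 hours. Each treatment had 2 H3K4me2 libraries and 1 input library, and the authors deposited 1 peak list per treatment. A list pools its libraries, so the spread between replicates is unknown, no test between treatments was possible, and every difference below is between lists of a single cell line. Peaks lay within 1 kb of the start of 10 of 12 myeloid marker genes in every list, among them SPI1, CEBPA and LYZ, but not of CSF1R or MPO. Among lymphoid markers CD2, CD79A and CD8A also had a peak there, while CD3D, CD3E, MS4A1 and PAX5 had none. A peak was found at 1 of 4 erythroid markers (KLF1) and 0 of 4 epithelial markers.

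Long non-coding RNAs are transcribed by RNA polymerase II from promoters that carry the same histone marks as those of coding genes, and many arise at enhancers. H3K4me2 marks both kinds of element, often on the nucleosomes that flank a start site while trimethylated H3K4 occupies those next to it. LSD1, a demethylase of the CoREST complex, removes methyl groups from mono- and dimethylated H3K4, and Corin inhibits LSD1 and the deacetylases of that complex. ATRA activates retinoic acid receptors and drives maturation of myeloid leukaemia cells.

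The sequence around the start sites split the members into a small CpG-rich class and a large CpG-poor class. A site was called CpG-rich where, over 500 bp on either side, GC content was at least 50% and the observed number of CpG dinucleotides at least 0.6 of that expected from base composition. This held for 1154 members (8.31%), against 58.0% of protein-coding starts and 56.7% of lncRNA starts within 5 kb of one. Median GC content was 45.5% at members and 59.2% at protein-coding starts. The following windows, read from GRCh38 from 250 bases before to 50 after the start, 5′ to 3′ on the gene's strand, show 4 CpG-rich members, with every CpG in capitals. MIR17HG (chr13:91347436-91347735, + strand) and NHSL1-AS1 (chr6:138692298-138692597, + strand) had the strongest DMSO peaks over the start. SNHG16 (chr17:76557477-76557776, + strand) and NORAD (chr20:36050969-36051268, − strand) are shown because their start was under a DMSO peak and not under a Corin peak; both were picked after their values were seen.
MIR17HG: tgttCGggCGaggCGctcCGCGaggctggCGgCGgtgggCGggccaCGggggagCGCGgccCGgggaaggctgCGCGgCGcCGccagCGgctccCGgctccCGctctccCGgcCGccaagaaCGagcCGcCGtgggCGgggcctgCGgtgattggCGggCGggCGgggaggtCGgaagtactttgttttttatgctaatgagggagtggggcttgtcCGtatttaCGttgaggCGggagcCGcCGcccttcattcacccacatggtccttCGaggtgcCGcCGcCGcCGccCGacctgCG
NHSL1-AS1: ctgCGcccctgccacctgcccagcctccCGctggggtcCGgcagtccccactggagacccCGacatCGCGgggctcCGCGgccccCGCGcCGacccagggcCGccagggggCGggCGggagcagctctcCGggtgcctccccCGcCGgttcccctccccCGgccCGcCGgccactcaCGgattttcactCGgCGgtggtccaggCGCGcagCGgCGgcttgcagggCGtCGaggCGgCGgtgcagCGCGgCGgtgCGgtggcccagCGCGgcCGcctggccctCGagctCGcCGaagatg
SNHG16: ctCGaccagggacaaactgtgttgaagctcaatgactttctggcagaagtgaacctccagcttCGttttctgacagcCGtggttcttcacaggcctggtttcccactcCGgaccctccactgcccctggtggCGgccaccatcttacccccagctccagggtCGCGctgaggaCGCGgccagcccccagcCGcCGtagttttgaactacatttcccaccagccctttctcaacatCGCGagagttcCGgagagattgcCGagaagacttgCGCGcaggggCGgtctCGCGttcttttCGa
NORAD: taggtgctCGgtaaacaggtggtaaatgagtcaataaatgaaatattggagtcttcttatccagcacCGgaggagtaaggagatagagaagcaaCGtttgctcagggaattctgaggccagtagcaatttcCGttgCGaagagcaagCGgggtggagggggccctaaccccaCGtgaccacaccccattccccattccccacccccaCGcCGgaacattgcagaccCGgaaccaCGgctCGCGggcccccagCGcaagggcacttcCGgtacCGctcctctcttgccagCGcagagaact
They hold 42, 41, 21 and 17 CpG dinucleotides. The next 3 windows belong to CpG-poor members at which a peak appeared after Corin, again picked after their values were seen. ENSG00000271420 (chr1:23378980-23379279, − strand), ENSG00000236403 (chr9:134936274-134936573, + strand) and LINC03078 (chr19:43331495-43331794, − strand) had no DMSO peak within 5 kb and a peak over the start in the Corin list.
ENSG00000271420: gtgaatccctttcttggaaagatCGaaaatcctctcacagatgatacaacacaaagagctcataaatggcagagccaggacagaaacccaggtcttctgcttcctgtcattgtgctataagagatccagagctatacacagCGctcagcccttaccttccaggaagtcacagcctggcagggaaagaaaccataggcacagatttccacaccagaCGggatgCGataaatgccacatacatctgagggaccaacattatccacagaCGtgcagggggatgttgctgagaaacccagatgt
ENSG00000236403: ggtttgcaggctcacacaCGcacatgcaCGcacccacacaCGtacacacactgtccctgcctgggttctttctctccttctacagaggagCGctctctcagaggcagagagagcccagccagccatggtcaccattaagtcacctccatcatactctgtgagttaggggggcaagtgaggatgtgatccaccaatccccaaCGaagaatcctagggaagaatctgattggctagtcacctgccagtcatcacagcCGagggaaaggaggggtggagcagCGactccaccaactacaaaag
LINC03078: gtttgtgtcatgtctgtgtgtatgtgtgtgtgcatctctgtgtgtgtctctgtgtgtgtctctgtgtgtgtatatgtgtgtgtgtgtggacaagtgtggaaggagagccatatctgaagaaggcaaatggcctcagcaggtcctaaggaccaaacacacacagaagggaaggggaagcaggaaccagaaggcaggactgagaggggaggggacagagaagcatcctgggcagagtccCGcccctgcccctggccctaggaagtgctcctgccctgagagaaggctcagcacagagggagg
These hold 5, 7 and 1 CpG dinucleotides, against a median of 4 over all members and 18 over protein-coding windows of the same length.

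Few stand-alone lncRNA starts carried H3K4me2. A peak covered the start base of 8.53% of members in the DMSO list (1185; 95% Wilson interval 8.08 to 9.01%, counting error only), 9.25% (1285) under ATRA, 8.85% (1229) under Corin, and 9.72% under both drugs (1350; 9.24 to 10.2%). Cover of protein-coding starts, most of them CpG-rich, was 43.2% with DMSO and 36.8% with ATRA+Corin. Counting any peak whose edge lay within 1 kb of the start, the members' share was 13.9%, 14.6%, 14.8% and 16.2% in the same order, against 59.3%, 59.5%, 59.6% and 60.5% of protein-coding starts. In all, 2428 members (17.5%) had a peak within 1 kb in at least 1 list.

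The lists themselves differed in extent. Their peaks covered 2.42% of the 23 chromosomes with DMSO, 2.76% with ATRA, 3.13% with Corin and 3.58% with ATRA+Corin. Relative to DMSO that was 1.14, 1.29 and 1.48 times as much sequence, while the members' cover was 1.08, 1.04 and 1.14 times as high. Relative cover of the members thus lagged behind the growth of the lists in all 3 cases. It lagged more at protein-coding starts, whose cover was 1.03, 0.847 and 0.852 times that with DMSO. The same held for lncRNAs within 5 kb of a protein-coding start, at 1.02, 0.938 and 0.942. How far list depth enters these differences was not tested, since the lists hold no library totals.

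CpG-rich and CpG-poor members differed between lists in opposite ways. Among the 1154 CpG-rich members, a peak covered 35.1% of starts in the DMSO list (32.4 to 37.9%), 35.8% under ATRA, 30.1% under Corin (27.5 to 32.8%), and 30.8% under both drugs (28.2 to 33.5%). Both lists with Corin lay below both lists without it. Their share with a peak within 1 kb was nearly level, at 48.4%, 48.9%, 47.7% and 49.0%. The 12736 CpG-poor members had cover of 6.12% with DMSO (5.72 to 6.55%), 6.85% with ATRA, 6.93% with Corin and 7.81% with ATRA+Corin (7.36 to 8.29%). Within 1 kb, their shares were 10.8%, 11.5%, 11.8% and 13.2%, so each treated list lay above DMSO. Protein-coding starts moved the same way within each class. Cover of CpG-rich coding starts was 58.7% with DMSO, 46.8% with Corin and 46.3% with ATRA+Corin, and that of CpG-poor coding starts was 21.7%, 22.4% and 23.7%.

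**Figure D1:**
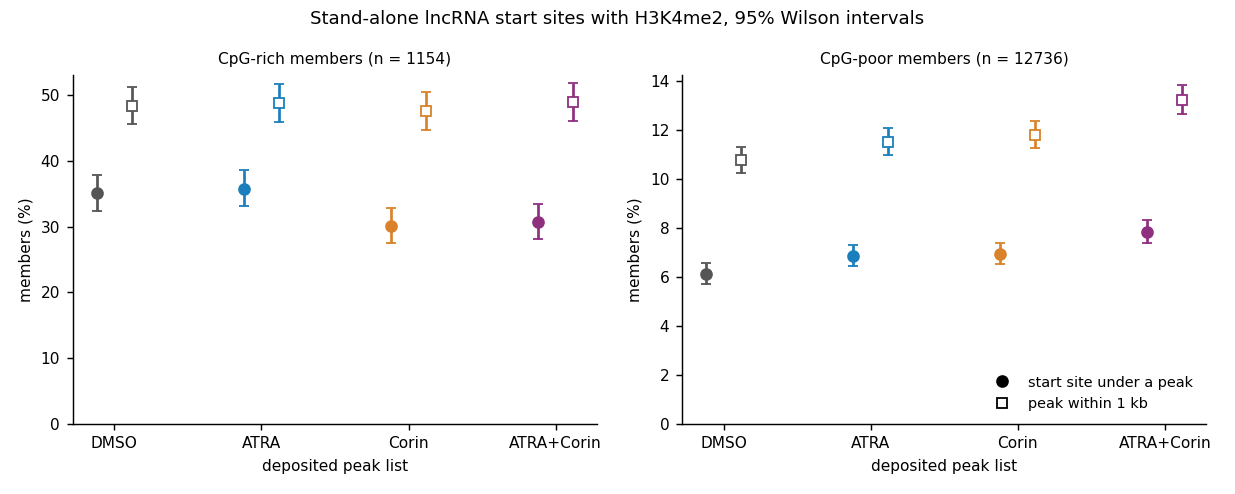
Percent of CpG-rich (left) and CpG-poor (right) stand-alone lncRNA start sites under an H3K4me2 peak (filled circles) or with a peak within 1 kb (open squares) in each of the 4 lists, with 95% Wilson intervals that cover counting error only. Cover of CpG-rich members was 35.1% with DMSO and 30.1% with Corin, while that of CpG-poor members was 6.12% and 6.93%.

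At CpG-rich members much of the difference with Corin lay at or close to the start base. Of the 405 CpG-rich members covered in DMSO, 66 were not covered in the Corin list and 8 others were covered with Corin and not with DMSO. Of the 66, 59 (89.4%) still had a Corin peak within 1 kb, at a median distance of 55 bp from the start. The ATRA+Corin list gave the same picture, with 66 uncovered, of which 63 (95.5%) kept a peak within 1 kb, and 16 newly covered. ATRA alone gave 28 uncovered and 36 newly covered CpG-rich members. A kept peak was commoner still at protein-coding starts of both CpG classes. Of 1833 that lost cover with Corin, 1805 (98.5%) had a Corin peak within 1 kb, at a median of 46 bp. With ATRA+Corin it was 1860 of 1886 (98.6%). When a peak within 100 bp counted as cover, the difference for Corin shrank from −5.03 to −2.25 percentage points and that for ATRA+Corin from −4.33 to −1.73.

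Cover by position traced the same dip. In CpG-rich members, cover was highest 100 bp downstream of the start in the DMSO list (40.2%) and 200 bp downstream in the Corin list (38.2%). Cover at the start was 0.873 of that maximum with DMSO, 0.877 with ATRA, 0.787 with Corin and 0.789 with ATRA+Corin. Protein-coding starts had a deeper dip, at 0.799, 0.813, 0.687 and 0.684. Farther out, 2 kb downstream of CpG-rich members, cover was 8.93% with DMSO, 9.97% with ATRA, 13.8% with Corin and 15.4% with ATRA+Corin, so cover was higher far from the start and lower at it in both lists with Corin.

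**Figure D2:**
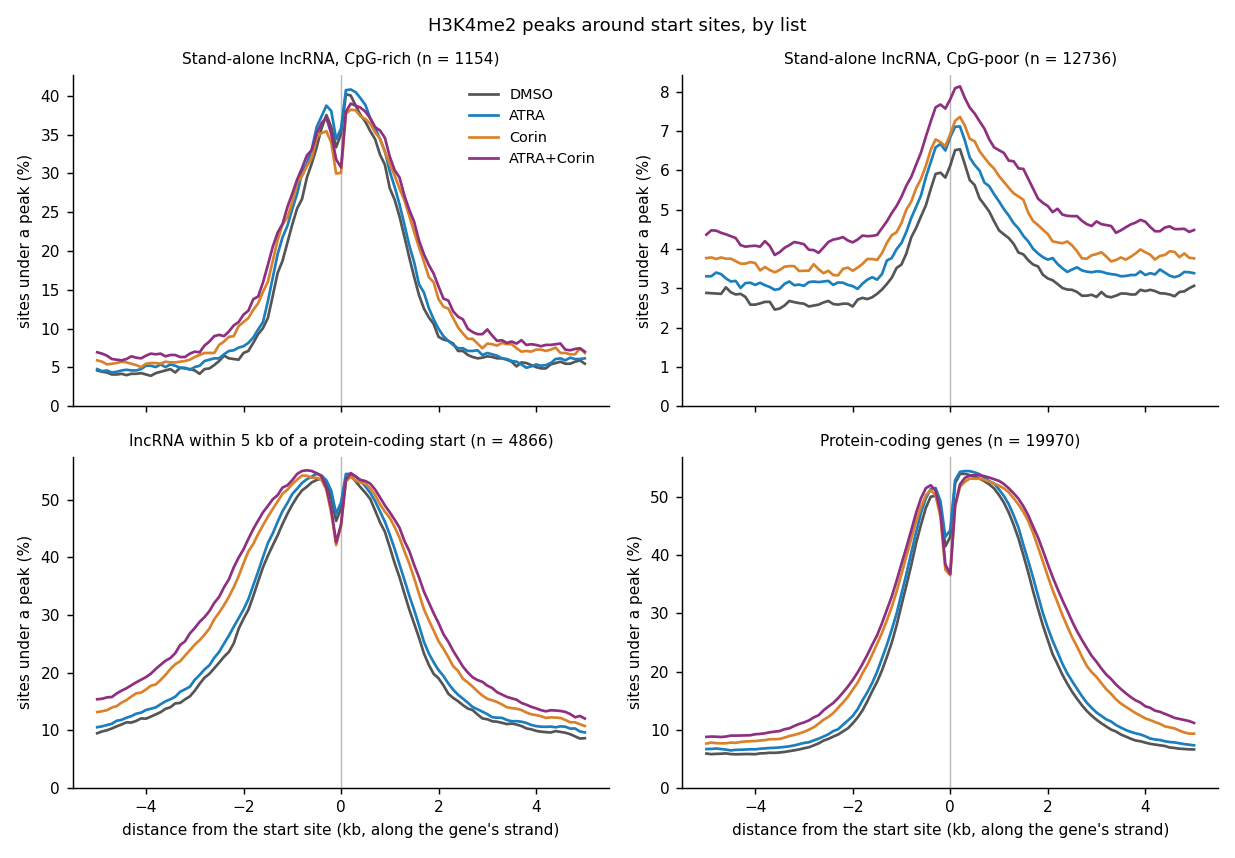
Percent of start sites under a peak at each distance from the start (kb, along the gene's strand, steps of 100 bp), for CpG-rich and CpG-poor stand-alone lncRNAs, lncRNAs within 5 kb of a protein-coding start and protein-coding genes, with 1 line per list and a vertical scale of its own in each panel. In CpG-rich members the Corin and ATRA+Corin lines drop to 30.1% and 30.8% at the start, below the DMSO line at 35.1%, and lie above it at 2 kb.

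CpG-poor members had no such dip, and the offset between lists was of similar size at the start and away from it. At the start, ATRA+Corin cover exceeded DMSO cover by 1.69 percentage points (7.81% against 6.12%). At 5 kb upstream of the same members the shares were 4.37% and 2.88%. Thus the higher cover in the combination list was not confined to the start sites.

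Counted site by site, more members gained than lost a peak within 1 kb in each treated list. With ATRA, 200 members gained a peak that DMSO lacked and 100 lost one (1.44% and 0.720% of members), against 1.1% and 0.646% of all start sites. With Corin, 240 gained and 118 lost one (1.73% and 0.850%), against 1.39% and 0.759%. With ATRA+Corin, 415 gained and 96 lost one (2.99% and 0.691%), against 2.3% and 0.596%. All start sites include the members, whose shares were a little above this background in each of the 6 counts. These shares divide by all sites, and only 13.9% of members had a DMSO peak there to lose, against 59.3% of protein-coding starts. They are therefore no rates of gain or loss. Of the 1929 members with such a peak, 100, 118 and 96 lost it with ATRA, Corin and ATRA+Corin. Of 11833 such protein-coding starts, 122, 144 and 110 did. CpG-poor protein-coding starts gained more often than members in all 3 lists, at 1.71% with ATRA, 2.21% with Corin and 3.63% with ATRA+Corin.

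Some of these counts hinge on weak peaks and list length. Where a −log10 q of 5 or more was required of each peak, the members that lost one numbered 62 with ATRA and 62 with ATRA+Corin. With every list limited to its 65172 strongest peaks, ATRA gained 193 members and lost 113, Corin gained 192 and lost 163, and the combination gained 275 and lost 148. The Corin difference in peaks within 1 kb was then 0.209 percentage points (0.878 with all peaks), within its counting error of 0.266. The median −log10 q of the gained peaks was 5.86 with ATRA, 5.49 with Corin and 6.28 with ATRA+Corin, and 58.0%, 55.8% and 59.0% of gained members had a peak of at least 5. Over all members with a peak in the ATRA+Corin list, the strongest within 1 kb had a median −log10 q of 41.0. A −log10 q is the authors' value for a peak in its own list, and values of several lists given together are no measure of change.

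For cover of the start base the members and the background parted in the lists with Corin. With ATRA, 195 members gained and 95 lost cover (1.40% and 0.684%), against 3.3% and 2.32% of all start sites. With Corin, 201 gained and 157 lost it (1.45% and 1.13%), against 2.24% and 5.91%. With ATRA+Corin, 303 gained and 138 lost it (2.18% and 0.994%), against 2.82% and 6.03%. Over all start sites lost cover outnumbered gained cover in both lists with Corin, whereas at members gained cover was the larger count. That background is rich in CpG-rich coding starts. These shares too divide by all sites, and 8.53% of members were covered with DMSO, against 43.2% of protein-coding starts. Of the 1185 covered members, 95, 157 and 138 lost cover with ATRA, Corin and ATRA+Corin. Of 8620 covered protein-coding starts, 678, 1833 and 1886 did. Of all CpG-rich members 5.72% lost cover with Corin, against 14.2% of all CpG-rich coding starts. Their DMSO cover differed as well, at 35.1% and 58.7%. Counting only starts covered with DMSO, 66 of 405 CpG-rich members and 1650 of 6798 CpG-rich coding starts lost cover with Corin. CpG-poor starts had more gains than losses with Corin in both kinds of gene, at 193 and 91 for members and 238 and 183 for coding genes.

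Which lists held a peak was also read as a pattern over the 4 lists. A peak within 1 kb was present in all 4 lists at 1746 members (12.6%, against 42.3% of all start sites) and in none at 11462 (82.5%, against 53.8%). The largest remaining pattern was ATRA+Corin alone, at 157 members (1.13%, against 0.855% of all start sites). Corin with ATRA+Corin followed at 110 (0.792%, against 0.622%), then all 3 drug lists without DMSO at 91 (0.655%, against 0.529%). The 45 members with ATRA alone and the 32 with Corin alone were fewer.

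**Figure D3:**
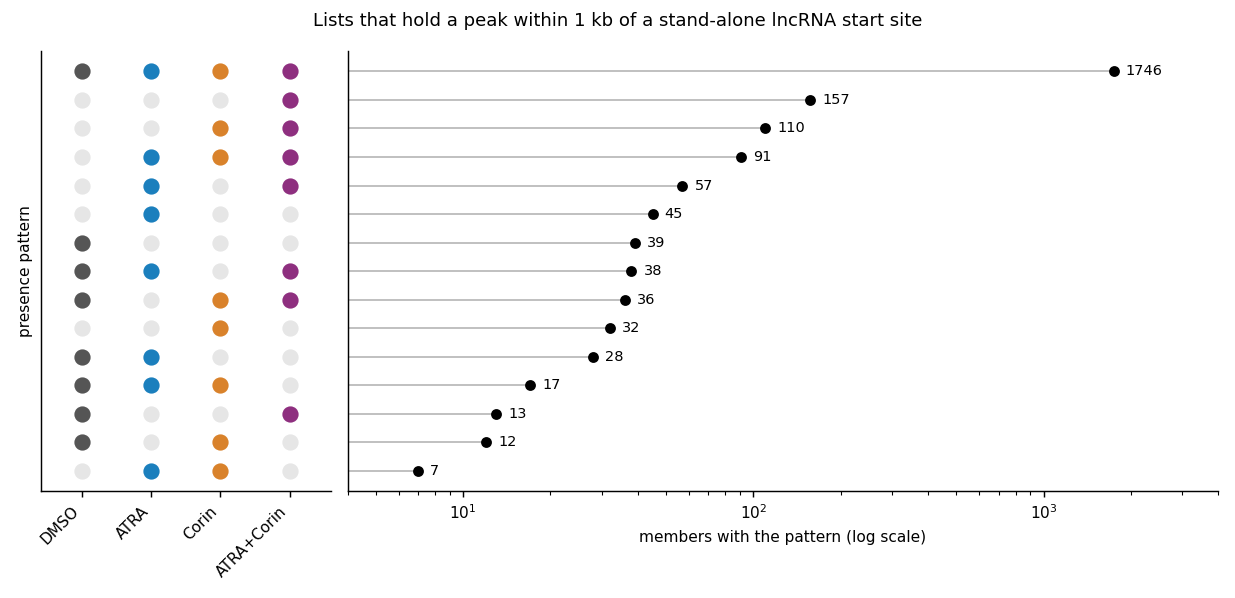
Number of stand-alone lncRNA start sites (horizontal log axis) with each pattern of peaks within 1 kb over the 4 lists (colored dots mark the lists that hold a peak; members without a peak in any list are left out). All 4 lists held a peak at 1746 members, and the next pattern, ATRA+Corin alone, held 157.

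Compared with the combination, each single drug list lacked peaks at more members than it added. Against the ATRA list, ATRA+Corin gained 316 members and lost 97 (2.28% and 0.698%, against 1.81% and 0.555% of all start sites). Against the Corin list, it gained 265 and lost 68 (1.91% and 0.490%, against 1.48% and 0.405%). These comparisons share the combination list, and no test of the difference between them was possible.

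Most gained members had no DMSO peak nearby, and the others had one between 1 and 5 kb away. Of the 415 members gained with ATRA+Corin, 284 (68.4%) had no DMSO peak within 2.5 kb and 231 (55.7%) none within 5 kb. The same 5 kb condition left 106 of 200 gained members with ATRA (53.0%) and 131 of 240 with Corin (54.6%). Of the 231, 107 also had a Corin peak within 1 kb and 72 an ATRA peak, and 15 were CpG-rich. These distance limits were added after the counts were seen. They were applied to members only, so no share over all start sites stands beside these counts. Whether the shares are particular to members was not tested.

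Several of the strongest gains and losses by −log10 q were peak edges that crossed the 1 kb limit. ENSG00000282418 and LINC02765, 36.2 and 36.5 kb from LBR, share a peak of −log10 q 166 in the ATRA+Corin list. Their nearest DMSO peaks lay 1734 and 1355 bp away. ENSG00000269680, antisense within TRIP10, was lost in all 3 drug lists because the nearest peak lay 914 bp away with DMSO and 1140, 1079 and 1096 bp away with ATRA, Corin and ATRA+Corin. ENSG00000253355 on chromosome 8 was lost with ATRA+Corin when the nearest peak moved from 997 to 1018 bp. TP73-AS2, antisense within the p53 family gene TP73, had a DMSO peak 31 bp from its start (−log10 q 78.0), weak peaks in the ATRA and Corin lists (2.91 and 0.994), and none within 1736 bp with ATRA+Corin.

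PTCSC1 had the strongest gained peak under ATRA+Corin. This single-exon lncRNA lies within the thyroglobulin gene TG on chromosome 8, 5.40 kb from the start of SLA, which encodes an adaptor of immune receptor signalling. Its nearest peak was 7353 bp away with DMSO, 5488 bp with ATRA and 7241 bp with Corin. With ATRA+Corin a peak of 24292 bp (fold enrichment 45.4, −log10 q 199) began 114 bp from its start. Such a wide peak spans more than the lncRNA, whose start it did not cover.

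Other members without a DMSO peak within 5 kb were gained in both lists with Corin. ENSG00000271420, a single-exon lncRNA 9.19 kb from the start of ZNF436, had its nearest peak 7784 bp away with DMSO and 7983 bp with ATRA. Its start was covered with Corin and with ATRA+Corin, where the strongest peaks within 1 kb had −log10 q of 43.6 and 62.0. ENSG00000236403 lies 18.6 kb from FCN1, which encodes a ficolin of monocytes, and had its nearest peak 6510 bp away with DMSO and with ATRA. Peaks over its start reached −log10 q of 17.0 with Corin and 38.3 with ATRA+Corin. Its printed window holds 7 CpG dinucleotides and that of ENSG00000271420 holds 5. Both lie below the protein-coding median of 18 but above the members' median of 4, while LINC03078, with 1, lies below both.

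LINC03078, 22.1 kb from the start of the neutrophil antigen gene CD177, was covered in all 3 drug lists. Its nearest DMSO peak was 10430 bp away, and the peaks over its start had −log10 q of 11.1 with ATRA, 17.0 with Corin and 14.8 with ATRA+Corin. ENSG00000286344 likewise gained a peak in all 3 lists, 875, 875 and 852 bp from its start, with −log10 q of 24.0, 5.77 and 26.9 and the nearest DMSO peak 21983 bp away.

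The share of lost members with no peak of the treated list within 5 kb was similar to that of gains. It was 54 of 100 with ATRA (54.0%), 70 of 118 with Corin (59.3%) and 54 of 96 with ATRA+Corin (56.3%). These losses too were counted at members only, with no share over all start sites.

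Among the lncRNAs with known roles in blood cells and leukaemia, the lists barely differed in presence of a peak. Of 43 symbols listed, 29 were members, 12 lay within 5 kb of a protein-coding start (among them HOTAIRM1 and CRNDE), 1 is annotated as protein-coding and 1 was not found. Of the 29, 16, 17, 16 and 17 had a peak within 1 kb with DMSO, ATRA, Corin and ATRA+Corin, and 11, 11, 9 and 9 were covered. A peak covered MIR17HG, MIR155HG, DLEU2, PVT1, LINC00173 and EGOT in every list. MIR17HG, host of a cluster of oncogenic microRNAs, had peaks of 4760, 4623, 5502 and 4784 bp over its start, with −log10 q of 343, 397, 229 and 280. MIR155HG, host of an inflammatory microRNA, had −log10 q of 97.8, 218, 93.2 and 138. MEG3, H19, UCA1, CYTOR, CCDC26 and FAM30A had no peak within 1 kb in any list.

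NORAD, NEAT1 and MALAT1 showed what uncovered starts look like. NORAD, an RNA that binds PUMILIO proteins, had a peak over its start with DMSO (−757 to 741 bp), with ATRA (−954 to 1591 bp) and with ATRA+Corin (−975 to 635 bp). With Corin its start fell in a gap between a peak that ended 26 bp upstream and one that began 87 bp downstream. NEAT1, the scaffold of paraspeckles, was covered with DMSO, ATRA and Corin, while the ATRA+Corin list had a gap from 35 bp upstream to 220 bp downstream. MALAT1, a nuclear speckle RNA, lay in such a gap in every list, with the nearest peaks 70, 105, 135 and 102 bp away. MIR223HG, host of a myeloid microRNA, was likewise uncovered with peaks 49, 20, 69 and 80 bp away.

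LUCAT1 and MIR4435-2HG were the only members of this list whose cover or peak within 1 kb was gained. LUCAT1, an interferon- and stress-induced lncRNA of myeloid cells, was covered with ATRA alone (peak from −415 to 1074 bp). Other lists had peaks on both sides of its start, with the nearest edge 144 bp away with DMSO, 105 bp with Corin and 19 bp with ATRA+Corin. The strongest of these had −log10 q of 10.2, 16.5 and 49.2. MIR4435-2HG, which acts in myeloid cell survival, had its nearest peak 2978 bp away with DMSO and 3193 bp with Corin, and peaks 925 and 988 bp away with ATRA and ATRA+Corin. Those peaks were weak (−log10 q 1.12 and 2.96), and CYTOR is a closely similar copy of the gene, so reads there can be hard to place.

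**Figure D4:**
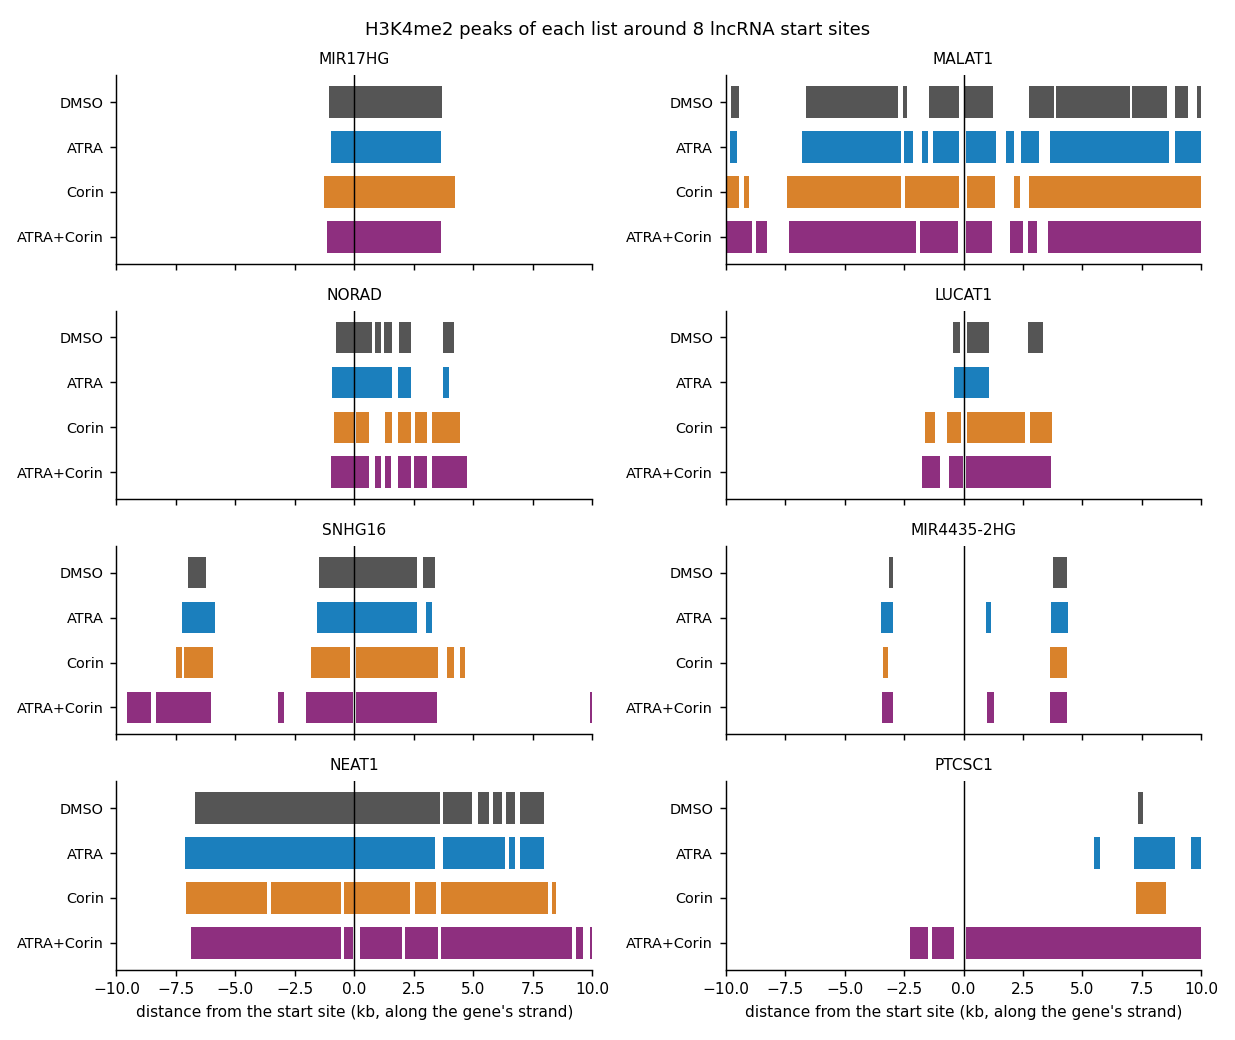
Peaks of each list (bars, 1 row per list) within 10 kb of the start sites of 8 stand-alone lncRNAs, by distance from the start in kb along the gene's strand; bars that reach the panel edge continue beyond it. The start (vertical line) lies in a gap at MALAT1 in all 4 lists and at NORAD with Corin, and the PTCSC1 bar with ATRA+Corin begins 114 bp after the start.

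snoRNA host genes showed the CpG-rich pattern in small numbers. Of 18 host members, 15 were CpG-rich, and 15 had a peak within 1 kb in each list. Cover was found at 10 with DMSO, 12 with ATRA, 7 with Corin and 8 with ATRA+Corin. SNHG16, SNHG21 and SNHG25 were covered with DMSO and ATRA and not in either list with Corin. Not every CpG-rich host followed this, as SNHG5 was covered with DMSO and Corin only and SNHG8 with ATRA and ATRA+Corin only. Against DMSO, 0 hosts gained and 3 lost cover with Corin, and 2 gained and 4 lost it with ATRA+Corin. Of the 405 CpG-rich members covered with DMSO, 66 lost cover with Corin and 66 with ATRA+Corin. The 10 covered hosts are too few to be told apart from that share. At SNHG16 the peak spanned −1467 to 2641 bp with DMSO and −1553 to 2644 bp with ATRA. A further peak lay at 2882 to 3398 bp with DMSO and at 3014 to 3255 bp with ATRA. With Corin 2 peaks flanked the start, −1802 to −181 bp and 69 to 3510 bp, and with ATRA+Corin −2041 to −60 bp and 54 to 3464 bp. Upstream, the outer edges of these flanking peaks reached farther than the DMSO peak over the start. Downstream they ended only a little beyond the further DMSO peak. The start itself was bare. SNHG7, SNHG12, SNHG15 and SNHG32 were covered in all 4 lists.

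Of 70 microRNA host members, 25 had a peak within 1 kb with DMSO, 26 with ATRA, 25 with Corin and 26 with ATRA+Corin, and 17, 17, 14 and 15 were covered. MIRLET7A1HG was covered with DMSO and ATRA and in neither list with Corin. MIR9-3HG was covered with DMSO and in none of the 3 drug lists, and MIR23AHG was uncovered with Corin alone, where the nearest peak lay 12 bp away. MIR5689HG, 14.7 kb from TFAP2A, had its nearest peak edge 3744 bp away with DMSO, 1003 bp with ATRA, 362 bp with Corin and 962 bp with ATRA+Corin. All 3 HOX cluster members, HOXA-AS2, HOXD-AS2 and HAGLROS, were without a peak within 1 kb in all 4 lists.

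Distance from coding genes separated members more than treatment did. In the DMSO list a peak lay within 1 kb of 18.7% of members 5 to 10 kb from a protein-coding start, 18.7% at 10 to 25 kb, 18.6% at 25 to 50 kb, 15.2% at 50 to 100 kb and 7.34% beyond 100 kb. With ATRA+Corin the first and last of these were 22.4% and 8.79%. CpG-rich members beyond 100 kb still had a peak in 33.5% of cases with DMSO, against 5.80% of CpG-poor members there. Just outside the rule, 19.5% of the 333 lncRNAs at 4 to 5 kb had a DMSO peak within 1 kb, and just inside it, 20.0% of the 290 members at 5 to 6 kb.

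**Figure D5:**
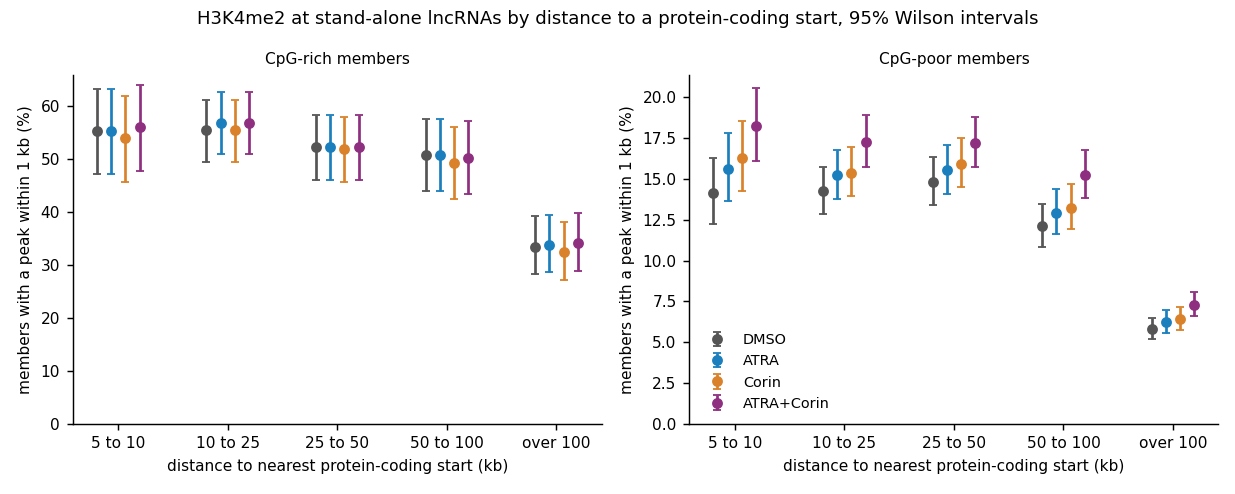
Percent of CpG-rich (left) and CpG-poor (right) members with a peak within 1 kb, by distance to the nearest protein-coding start (kb) and list, with 95% Wilson intervals that cover counting error only. CpG-poor members had 5.80% with DMSO beyond 100 kb, and ATRA+Corin points lie above DMSO points in every band of that panel.

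Position and annotation gave further contrasts. The 9485 members outside protein-coding genes had a DMSO peak within 1 kb in 15.5% of cases, the 3128 antisense within one in 11.0% and the 1277 on the same strand within one in 9.16%. With ATRA+Corin these were 17.5%, 14.2% and 11.0%, so the antisense members had the largest ratio to DMSO of these 3 classes, 1.29. Members named as host genes (88) stood at 45.5%, and the 10068 without a symbol at 12.6%. By chromosome the DMSO share ran from 6.36% of 692 members on chromosome 4 to 21.5% of 335 on chromosome 22.

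Peaks at members were narrower and weaker than at coding genes of the same list. The strongest DMSO peak within 1 kb had a median width of 1239 bp at members and 2225 bp at protein-coding starts, and a median −log10 q of 37.4 and 81.6. In the ATRA+Corin list the widths were 1478 and 2446 bp. CpG-rich members came close to coding genes in strength, with a DMSO median −log10 q of 73.0, against 24.9 for CpG-poor members.

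Finally, 4 short motifs were looked up on both strands of the 300-base windows. TATAAA is the TATA box core, and AGGTCA the core hexamer bound by retinoid and other nuclear receptors. TGANTCA, with any base at N, includes the AP-1 site but is wider than it. GAGGAAGT is an ETS site bound by PU.1. None of the 4 contains another. TATAAA was found in 18.7% of members, 13.3% of all start sites and 9.45% of members with a peak in all 4 lists. AGGTCA was found in 19.1% of members and 15.5% of all start sites, and in 18.5%, 23.3% and 19.3% of members gained with ATRA, Corin and ATRA+Corin. TGANTCA was found in 11.5% of members and 8.10% of all start sites, and in 12.0%, 15.8% and 16.1% of the gained members. GAGGAAGT was found in 2.25% of members, 2.32% of all start sites and 3.89% of members with a peak in all 4 lists. In the windows printed above, NORAD holds TGANTCA, and the others hold none of the 4.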

How the data were processed

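H3K4me2 ChIP-seq of U-937 cells under 4 treatments was analysed from 4 peak lists, 1 per treatment, called on pooled libraries against input. The submitters' processing notes name Trimmomatic, Bowtie2, Picard, MACS2 and the build hg38, with no versions or settings. The deposited score of a peak followed 10 times its −log10 p, capped at 1000; the authors' fold enrichment is a ratio over input at the summit, and the deposited −log10 p and −log10 q came from the same list, with a lowest −log10 p near 2.02. The deposited summit offset was read and not used. Folds and −log10 values served to describe, rank or filter the peaks of their own list, and those of several lists are set side by side as description only. Library depth is not given in the lists.

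Start sites came from GENCODE release 44 (GRCh38); 0 peaks ended past a chromosome end of that build. Positions were counted from 1. Computed here with Python 3.11.15, pandas 2.3.3, numpy 2.4.6 and scipy 1.17.1 were cover of the start base, peaks within 1 kb, presence patterns and 95% Wilson intervals. Look-ups were tested on simulated sites. Named members are the 3 with the strongest DMSO cover, the 3 strongest gains and losses per treatment by −log10 q, and members of 4 lists (myeloid and leukaemia lncRNAs, microRNA hosts, snoRNA hosts, HOX cluster); not all are described. Members and lists were chosen with earlier results of these data known. Members without a peak of the other list within 5 kb, and the windows shown for SNHG16, NORAD, ENSG00000271420, ENSG00000236403 and LINC03078, were chosen after their values were seen. Of the 13890 members, 893 lie within 1 kb of another, so some share peaks. Some items are not reported here.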

Additional observations from a re-analysis of the deposited data

How the results depend on the processing

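In all, 8 alternatives gave 105 values for 16 results, of which 90 stayed within their counting error or within 1.5 times the count, 15 moved and 0 reversed. Restricting to −log10 q of at least 5 moved the ATRA difference in peaks within 1 kb from 0.720 to 1.07 percentage points, and the members lost from 100 to 62 with ATRA and from 96 to 62 with ATRA+Corin. With 65172 peaks in each list, the 1 kb difference was 0.209 for Corin (0.878 with all peaks) and 0.914 for ATRA+Corin (2.30), the ATRA+Corin cover difference was 0.662 (1.19) and 1.15 at CpG-poor members (1.69), and ATRA+Corin gained 275 and lost 148 members. A window of 2.5 kb gave differences of 1.12, 1.36 and 3.23 for ATRA, Corin and ATRA+Corin, and one of 500 bp gave 1.71 for ATRA+Corin. Cover within 100 bp gave −2.25 for Corin and −1.73 for ATRA+Corin at CpG-rich members. The causes were not tested, beyond what each construction sets (fewer peaks, a wider or narrower window). No paired analysis was possible because each treatment has 1 pooled list, and leaving out a replicate was not possible for the same reason.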

Other observations

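Some members lay close together. The 13890 members fall into 13432 groups when those within 1 kb of the next are joined. The 4 lists placed 2188, 2189, 2360 and 2575 of their peaks within 1 kb of a member with DMSO, ATRA, Corin and ATRA+Corin, which is 3.36%, 3.30%, 3.19% and 3.07% of each list. Members of a single exon (1875) had a DMSO peak within 1 kb in 17.5% of cases, against 13.3% of the 12015 with more exons. With ATRA+Corin, 357 of the former and 15.7% of the latter had one.

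Members named LINC (2130) had a DMSO peak within 1 kb in 14.5% of cases and an ATRA+Corin peak in 16.5%, and those named as antisense (885) in 15.4% and 17.7%. MIR3663HG kept peaks 573, 574 and 598 bp from its start with DMSO, ATRA and ATRA+Corin and had its nearest Corin peak 5310 bp away. ENSG00000257391, a CpG-rich member, had peaks 93, 65 and 83 bp away in those lists and its nearest Corin peak 59600 bp away.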
